A study of Mus musculus with 2 samples.

Results

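The acyl-CoA binding proteins described here are 6 of the 32285 genes listed for each library. They are Dbi, Acbd3, Acbd4, Acbd5, Acbd6 and Acbd7, taken by symbol in the matrices of both tissues. Their choice rested on the level of Dbi in sebocytes, which was known from these data to be higher in the preputial gland (PG) than in the skin. The contrast between the tissues is therefore given as a description. Levels were followed through marker-gated cell classes and sebocyte stages of each tissue, including the hair matrix, beside the free RNA of the same library.

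The study asked how far sebocytes of the PG (pSEB) resemble sebocytes of skin sebaceous glands (sSEB). Single cells came from back skin and from preputial glands of 3 male wild-type C57BL/6 mice aged 52 weeks, and no group received a treatment. The material of the 3 mice was pooled within each tissue and sequenced as 1 library per tissue, so there was no replicate, no test was possible, and library and tissue cannot be told apart. Only old males were sampled, and a PG library holds the whole gland.

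Dbi, the diazepam binding inhibitor, is the classical acyl-CoA binding protein. It is a small cytosolic protein that holds activated fatty acids and hands them to the enzymes that use them, and peptides cut from it act on the benzodiazepine site of GABA receptors. Mice without Dbi have greasy fur and a leaky epidermal barrier. Acbd7 is a similarly small relative of Dbi. Acbd6 carries an acyl-CoA binding domain and ankyrin repeats and aids the N-myristoyltransferases Nmt1 and Nmt2. Acbd4 and Acbd5 are anchored in the peroxisome and tie it to the endoplasmic reticulum through Vapa and Vapb, and Acbd5 serves the uptake of very long acyl-CoA esters by peroxisomes. Acbd3 is a Golgi protein that binds the kinase Pi4kb and giantin (Golgb1).

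All positions are given on mm10 with the GENCODE vM21 gene models. Dbi (ENSMUSG00000026385) lies on the minus strand at chr1:120113280-120121078. The other members lie on plus strands, Acbd6 (ENSMUSG00000033701) at chr1:155558120-155691330, Acbd3 (ENSMUSG00000026499) at chr1:180726043-180754204 and Acbd7 (ENSMUSG00000026644) at chr2:3336168-3340993. Acbd5 (ENSMUSG00000026781) lies at chr2:23068167-23115558 and Acbd4 (ENSMUSG00000056938) at chr11:103101682-103112200. Acbd3 overlaps the antisense gene Gm37768.

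Dbi and Acbd7 are the members closest in size, with 87 residues encoded by the main transcript of Dbi and 88 by that of Acbd7. The longest models of the others encode 282 residues for Acbd6, 327 for Acbd4, 520 for Acbd5 and 525 for Acbd3. The coding sequences of Dbi and Acbd7 are shown because both genes are discussed in the same cells and a reader may ask whether their reads can be told apart. Capitals mark the bases that differ in a global alignment, in which 173 of 271 positions (63.8%) were identical and the longest identical run was 14 bases.
Dbi coding sequence: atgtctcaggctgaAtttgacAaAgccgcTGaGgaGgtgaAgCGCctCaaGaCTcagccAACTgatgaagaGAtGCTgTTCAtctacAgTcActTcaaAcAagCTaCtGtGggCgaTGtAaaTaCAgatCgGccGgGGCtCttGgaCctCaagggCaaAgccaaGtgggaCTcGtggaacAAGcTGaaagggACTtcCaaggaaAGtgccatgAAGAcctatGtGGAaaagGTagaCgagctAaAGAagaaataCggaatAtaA
Acbd7 coding sequence: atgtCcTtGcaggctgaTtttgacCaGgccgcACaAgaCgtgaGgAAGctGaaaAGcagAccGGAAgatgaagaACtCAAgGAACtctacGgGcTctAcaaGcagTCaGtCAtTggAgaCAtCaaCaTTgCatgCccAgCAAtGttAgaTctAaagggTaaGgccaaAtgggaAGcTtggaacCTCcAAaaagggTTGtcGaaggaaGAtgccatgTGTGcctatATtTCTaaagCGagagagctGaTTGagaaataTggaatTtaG

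The only stretch of Dbi transcripts shared with another gene, at 95% identity over at least 90 bases, was with the pseudogene Gm12222, which is not among the genes listed. Acbd4 and Acbd7 shared none. Acbd3 shared such stretches with 8 genes, Acbd5 with 27 and Acbd6 with 146, of which 8, 7 and 92 are listed in the matrices, so part of the reads of these members could have been discarded or assigned elsewhere. The libraries are read from the 3′ end, and a molecule is counted once whatever its length. Where the reads fell within these transcripts was not analysed here.

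The 250 bases before the start are shown for Acbd6 and Acbd7, whose sebocyte levels differed between tissues and stages. They come from RefSeq on GRCm38.p6, where 4 of the 6 members had an entry. The window of Acbd6 stands at chr1:155557870-155558119 and that of Acbd7 at chr2:3335918-3336167, both on the plus strand. Capitals mark matches to CCAAT, read on both strands.
Acbd6 promoter: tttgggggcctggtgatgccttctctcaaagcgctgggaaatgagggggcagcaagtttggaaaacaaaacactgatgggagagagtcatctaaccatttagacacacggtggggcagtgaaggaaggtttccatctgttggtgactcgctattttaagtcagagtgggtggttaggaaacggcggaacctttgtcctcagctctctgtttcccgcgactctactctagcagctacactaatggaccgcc
Acbd7 promoter: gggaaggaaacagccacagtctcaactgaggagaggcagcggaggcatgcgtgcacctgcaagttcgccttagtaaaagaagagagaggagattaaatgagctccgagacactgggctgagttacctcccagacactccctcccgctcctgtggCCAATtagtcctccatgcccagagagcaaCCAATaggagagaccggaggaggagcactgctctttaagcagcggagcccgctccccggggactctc

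The window of Acbd7 held CCAAT at 2 places, and 33.9% of the 32851 promoter windows held it. The window of Acbd6 held neither that motif nor GGGCGG (32.7% of windows), TATAAA (12.4%), the sterol regulatory element TCACNCCAC (1.05%), the E-box TCACGTGA (0.785%) or the direct repeat read by PPAR and RXR dimers (0.0335%). The GC content was 57.6% for Acbd7 and 51.2% for Acbd6, beside a median of 52.4% over all windows. These letters are a description of the windows and say nothing about the binding of a factor.

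The skin library held 37675226 UMIs and the PG library 26288071. Barcodes with 500 or more genes, 1000 or more UMIs and no more than 10% of UMIs from mitochondrial genes were kept as cells. This left 8899 skin cells and 4699 PG cells, with medians of 2386 and 2729 UMIs, and no kept barcode was shared. The lists of possible barcodes differed between the libraries, with 6794880 entries in the skin and 737280 in the PG. Such lists come with different versions of the droplet chemistry, although the labels name 1 kit, and a difference in chemistry cannot be told apart from a difference between the tissues in any ratio between them. In the PG, 662 barcodes were removed for mitochondrial UMIs, against 232 in the skin. Gates on fixed marker lists left 894 skin cells and 810 PG cells without a class, and 293 and 165 cells that met incompatible gates were set aside. The hair matrix, inner root sheath, melanocyte and skeletal muscle gates held no PG cell, and 1 of the 7 hair matrix markers, Krt85, was not analysed here.

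The sebocyte gate required 3 of 9 markers and a share of 20 marker UMIs per 10000. It held 785 pSEB and 38 sSEB. In the PG 483 barcodes that passed had exactly 3 markers or a share less than 25% above the limit. A further 816 did not pass but had at least 2 markers and a share no more than 25% below the limit. In the skin these were 24 and 118. The gate rested on different genes in the tissues. Levels are given as CPM, the UMIs of a gene scaled to the total UMIs of its class as counts per 1000000. Awat2, a wax ester synthase, stood at 674 CPM in pSEB and 45.8 in sSEB, whereas Far2 stood at 0.234 and 246 CPM and Elovl3 at 5.38 and 189 CPM. Scd1, the stearoyl-CoA desaturase, was high in both, at 3309 and 4438 CPM. A sebocyte counted as differentiated with UMIs of at least 2 of 6 late markers at a share of at least 5 per 10000. Of the rest, a cell was early with at least 20 UMIs per 10000 of basal keratins and integrins, and intermediate otherwise. None of the members was a marker. The late markers were Awat2, Elovl3, Soat1, Far2, Mc5r and Dgat2l6, and the differentiated stage also rested partly on different genes in the tissues. Awat2 stood at 4226 CPM in differentiated pSEB and 95.1 CPM in differentiated sSEB. Far2 stood at 1.51 and 476 CPM and Elovl3 at 28.6 and 369 CPM in these cells. Soat1 was high in both, at 1311 and 1938 CPM. The stages held 198 early, 491 intermediate and 96 differentiated pSEB, and 9, 13 and 16 sSEB. Each CPM has an exact Poisson 95% interval and each ratio an exact binomial one, and both cover counting error only. Where nothing was counted, the limit given is that of 3 counts. A fold against such a limit uses the level of the other group without its interval.

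Dbi was the most abundant transcript of pSEB. Its 90202 UMIs in 785 cells gave 21118 CPM (20981 to 21256), and 784 of the 785 cells held at least 1 UMI. In 38 sSEB 97 UMIs gave 555 CPM (450 to 677), rank 253 in that class, and 24 of the 38 cells held none. The ratio between the tissues was 38.1-fold, or 5.25 on the log2 scale (4.96 to 5.55). A single intermediate sSEB held 61 of the 97 UMIs. This cell also held 42 UMIs of S100a3, a gene of the hair cuticle, where no other sSEB held more than 5. Without it the level in sSEB was 214 CPM (150 to 296) and the log2 ratio 6.63.

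Within the PG, Dbi was higher with each sebocyte stage. It stood at 11165 CPM (10943 to 11390) in early, 20720 CPM (20551 to 20891) in intermediate and 35691 CPM (35238 to 36149) in differentiated pSEB, where it made up 3.57% of all UMIs. Differentiated pSEB exceeded early pSEB by 1.68 on the log2 scale (1.64 to 1.71), a 3.20-fold difference. None of the 3 intervals overlapped. Every differentiated pSEB held Dbi, from 5 to 564 UMIs with a median of 231. The size of the difference depended on how cells were classed, and with Leiden clusters in place of the gate it was 0.82 on the log2 scale.

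In the skin the stages followed no such order. Early sSEB held 4 Dbi UMIs (93.6 CPM, 25.5 to 240) and differentiated sSEB 9 (107 CPM, 48.9 to 203), and their log2 ratio of 0.19 had an interval from -1.65 to 2.34. Intermediate sSEB stood at 1749 CPM, most of it in the single cell named above. In a Leiden cluster of 147 skin cells used in place of the gate, 12 cells classed as differentiated held 1 Dbi UMI. The 123 cells classed as early held 148, a log2 ratio of -5.19 (-10.5 to -2.69). The gate held 38 sSEB, 9 of them early, so most cells of this cluster had not passed it. Early was set by basal keratins and integrins, which basal keratinocytes also carry, so no course of Dbi over sebocyte stages is read from this ratio. Between the tissues the differentiated stages were 8.38 apart on the log2 scale (7.46 to 9.51), and the value lay between 7.61 and 11.36 under every alternative that gave one. These stages rested partly on different late markers in the tissues.

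**Figure D1:**
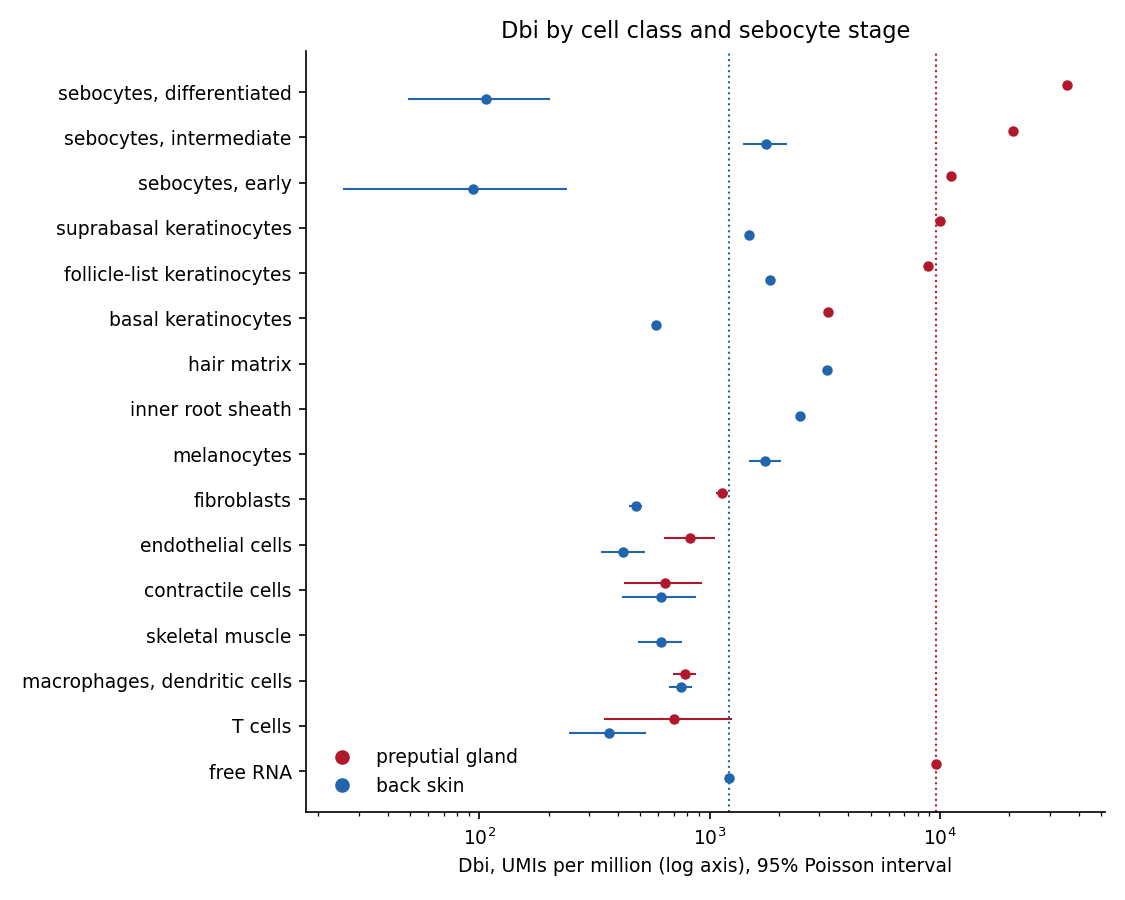
Dbi in CPM (log axis) in each cell class and sebocyte stage of the PG (red) and back skin (blue), with 95% Poisson intervals and dotted lines at the free RNA of each library. The PG stages stand at 11165, 20720 and 35691 CPM, while the highest skin class is the hair matrix at 3229.6 CPM.

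A finer order of the stages, by the number of late markers with a UMI in a cell, showed the same course in the PG. Dbi stood at 15783 CPM in 384 pSEB without a late marker, 19012 CPM in 249 pSEB with 1, 30170 CPM in 108 with 2 and 36546 CPM in 44 with 3 or more. Median depth also differed along this order, from 4643.5 to 9242 UMIs per cell, and its part in the result was not tested. In sSEB no Dbi UMI was seen in 5 cells without a late marker. The level was 1312 CPM in 17 cells with 1 marker, among them the cell rich in S100a3, and 446 CPM (294 to 649) in the 16 others. It was 383 CPM in 6 with 2 and 15.8 CPM (up to 88.1) in 10 with 3 or more, in which 1 UMI was counted.

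**Figure D2:**
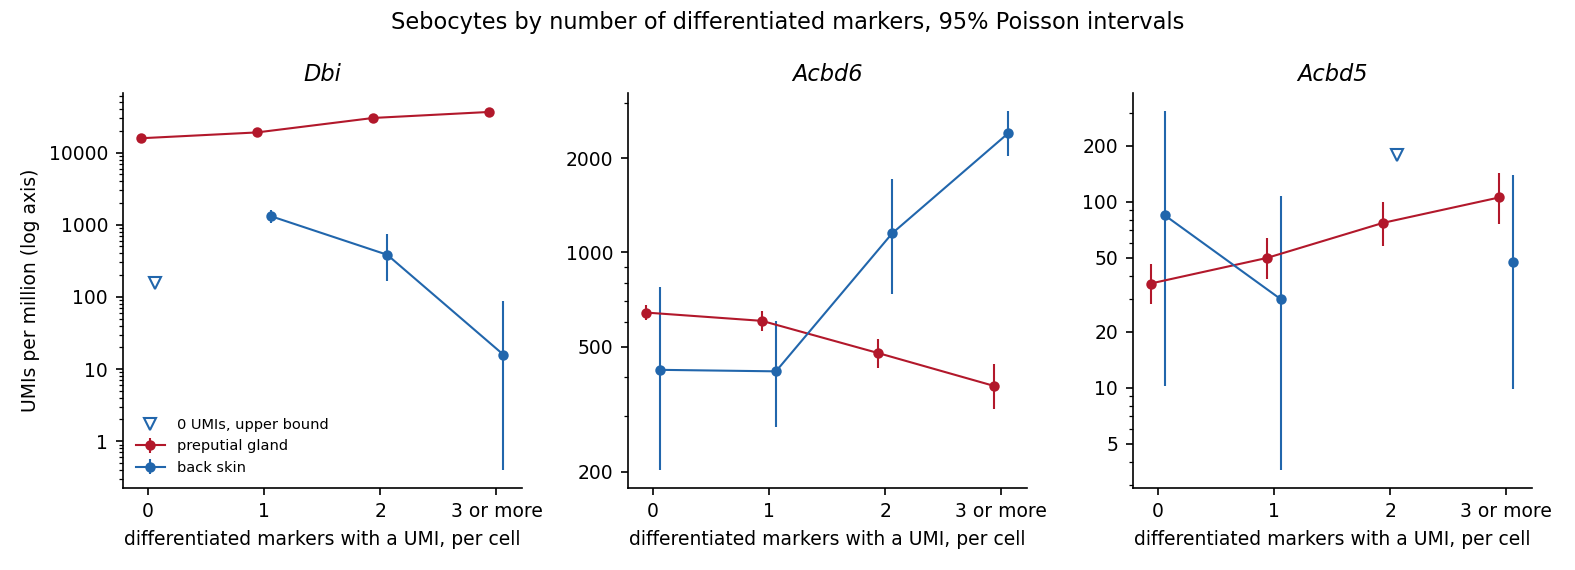
Dbi, Acbd6 and Acbd5 in CPM (log axes) in sebocytes grouped by how many of 6 late markers had a UMI, with 95% Poisson intervals for the PG (red) and skin (blue) and open triangles at the upper bound where no UMI was counted. In the PG, Dbi is higher (15783 to 36546 CPM) and Acbd6 lower (643 to 375 CPM) along the axis, whereas in the skin Acbd6 goes from 422 to 2403 CPM.

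Outside sebocytes, the epithelium of the PG also carried much Dbi. Suprabasal keratinocytes stood at 10045 CPM (9716 to 10382), cells gated on the follicle list at 8851 CPM (8700 to 9004) and basal keratinocytes at 3281 CPM (3230 to 3332). The follicle list found no UMI of Krt75 and Krt24 in the PG, so these cells are named by the list only. Over PG basal keratinocytes Dbi was higher by 1.43 on the log2 scale in follicle-list cells (1.40 to 1.47) and by 1.61 in suprabasal keratinocytes. Each epithelial class exceeded its skin counterpart, by 2.76 on the log2 scale in suprabasal, 2.27 in follicle-list and 2.49 in basal keratinocytes. Fibroblasts of the PG stood at 1129 CPM against 477 CPM in the skin, a log2 ratio of 1.24 (1.11 to 1.37). Of the 3 members tested in fibroblasts Dbi and Acbd6 were at least 2-fold higher in the PG, beside 10.2% of all genes, and none at least 2-fold lower, beside 7.67%. Each fell short of 2-fold under 1 of 2 alternatives chosen after seeing the data. With free RNA subtracted in both tissues the log2 ratio of Dbi was 0.79 and that of Acbd6 1.01. Without the PG fibroblast with most UMIs of the gene they were 1.14 and 0.84 (0.35 to 1.34), since 1 cell held 12 of the 78 Acbd6 UMIs. Acbd6 reached 50 CPM in PG fibroblasts only, so nothing is read from the count. Macrophages and dendritic cells did not differ detectably between the tissues, at 779 and 750 CPM (log2 ratio 0.05, -0.18 to 0.29), nor did contractile cells, at 641 and 615 CPM (0.06, -0.73 to 0.85). These levels include free RNA. In macrophages and dendritic cells it could bring up to 453 CPM in the PG and 108 CPM in the skin, the latter on 1 sebocyte marker UMI. Whether they differ without free RNA was not tested. The ratio was 0.96 (0.47 to 1.45) in endothelial cells and 0.93 (-0.23 to 1.98) in T cells.

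The PG order of Dbi ran from differentiated, intermediate and early pSEB through suprabasal, follicle-list and basal keratinocytes to fibroblasts, and no interval of the ratio of neighbours included 0 in this part of the order. Below fibroblasts, endothelial cells (823 CPM), macrophages and dendritic cells, T cells (699 CPM) and contractile cells could not be ordered beyond counting error. The levels in this order include free RNA, and its part in the order was not tested. In the suprabasal gate 53 of the 60 PG barcodes that passed lay near the limit by the rule used for sebocytes. In the follicle gate these were 398 of 417.

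In the skin the hair lineage led. The hair matrix class, named for the dividing cells at the base of the growing hair, stood at 3229.6 CPM (3142 to 3319) in 325 cells. Of these cells 97.2% held a Dbi UMI. Its gate required no cycling marker. By the rule used for sebocytes, 187 of the 332 barcodes that passed lay near the limit and 242 lay just outside it. The inner root sheath followed at 2466 CPM (2392 to 2542) in 418 cells. Over basal keratinocytes, which stood at 585 CPM, the hair matrix was higher by 2.46 on the log2 scale (2.41 to 2.52) and the inner root sheath by 2.08 (2.02 to 2.13). Follicle-list keratinocytes (1835 CPM), intermediate sSEB and melanocytes (1747 CPM, 23 cells) were not separated from each other by counting error, nor were melanocytes from suprabasal keratinocytes (1486 CPM). Of the 4 members tested between hair matrix and basal keratinocytes, Dbi alone was at least 2-fold higher, beside 18.4% of all genes tested, and none was at least 2-fold lower, beside 16.6%. A gene counted as tested with at least 50 CPM in either group. Cycling basal keratinocytes of the skin exceeded non-cycling ones by 0.41 on the log2 scale (0.30 to 0.51), and in the PG the same ratio was -0.10 (-0.16 to -0.04).

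Dbi was abundant in the free RNA of the PG, taken from barcodes with 1 to 100 UMIs, at 9599.6 CPM against 1214 CPM in the skin. Free RNA also reaches droplets with other cells, and its amount in each class was bounded by the UMIs of sebocyte markers there. In the PG this bound rested mainly on Awat2, Cidea and Mc5r, since Elovl3, Far2 and Dgat2l6 were at or near 0 in free RNA. In basal keratinocytes, however, 79 of the 139 marker UMIs were of Cidea, 27 of Awat2 and 20 of Dgat2l6. Free RNA held 122 CPM of Cidea and 301 CPM of Awat2, so the mix of markers in these cells was not that of free RNA. Dgat2l6 stood at 4.14 CPM in basal keratinocytes and 2.34 CPM in pSEB, so it was not particular to sebocytes. The bound rested mainly on Cidea in these cells, and it was not recomputed without Cidea or Dgat2l6. Free RNA could account for up to 30.4% (17.4 to 49.3) of the Dbi of PG fibroblasts, 58.1% (26.6 to 110) of that of macrophages and dendritic cells, and 17.2% (14.5 to 20.3) of that of basal keratinocytes. In suprabasal and follicle-list keratinocytes the bound was 30.1% and 23.9%. Endothelial cells and T cells each held 1 marker UMI and contractile cells none, so no usable bound was obtained there. pSEB exceeded PG fibroblasts by 4.23 on the log2 scale (4.14 to 4.32). The difference was 4.75 after the free RNA bound was subtracted from fibroblasts only. It was 3.12 among cells with at least 1000 genes and 2000 UMIs, where 66 fibroblasts remained.

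**Figure D3:**
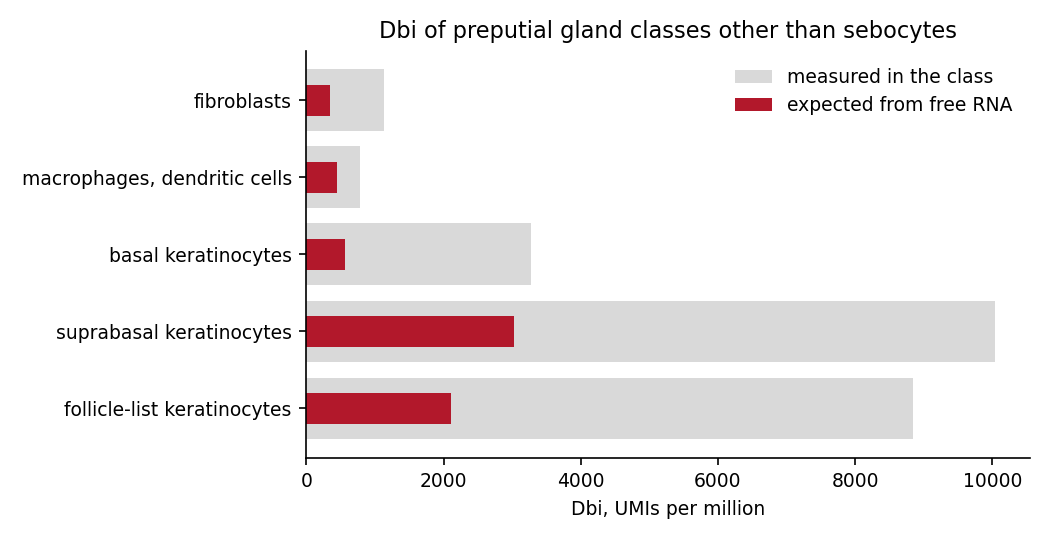
Dbi in CPM (linear axis from 0) as measured in 5 PG classes (grey) and as bounded from free RNA (red). The bound is 343 of 1129 CPM in fibroblasts and 565 of 3281 CPM in basal keratinocytes.

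After every cell was thinned to 1000 UMIs, 98.6% of pSEB held a Dbi UMI (99.9% before thinning) and 50.3% of PG fibroblasts did (62.0% before, at a median of 1333 UMIs against 5131 in pSEB). In the skin 23.7% of sSEB (11.4 to 40.2) held one after thinning (36.8% before). The share in skin fibroblasts was 32.8% (29.8 to 35.8), and 49.7% before, so the thinned shares were not separated. No class here is sure to lack Dbi, so fibroblasts served for comparison. A share not above theirs is not read as expression in sSEB. The level in differentiated sSEB was 3.50 lower on the log2 scale than in the skin free RNA (interval of the ratio -4.63 to -2.58).

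Acbd6 was the member with the highest level in sSEB. It stood at 1224 CPM (1065 to 1399) in 38 sSEB, and no other skin class lay above 95.1 CPM, the level of skeletal muscle. Over basal keratinocytes of the skin (54.8 CPM), sSEB were higher by 4.48 on the log2 scale (4.25 to 4.71). Of the 4 members tested in that contrast Acbd6 alone was at least 2-fold higher, beside 21.9% of all genes tested, and none was at least 2-fold lower, beside 14.7%. Skin free RNA held 52.6 CPM of Acbd6.

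The level of Acbd6 in the skin differed by stage. Early and intermediate sSEB stood at 421 CPM (250 to 666) and 417 CPM (254 to 643) and were not separated. Differentiated sSEB stood at 2092 CPM (1795 to 2425), 2.31 higher on the log2 scale than early sSEB (1.61 to 3.10). Among the 4 members tested between these stages Acbd6 and Acbd3 were at least 2-fold higher, beside 19.8% of all genes tested, and none at least 2-fold lower, beside 25.3%. Acbd3 reached 50 CPM in the differentiated stage only, rested on 5 and 1 UMIs, and its interval included 0.

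In the PG Acbd6 took another course. It stood at 479 CPM (434 to 528) in early, 664 CPM (634 to 695) in intermediate and 356 CPM (312 to 404) in differentiated pSEB, a log2 ratio of -0.43 (-0.67 to -0.20) between the last and the first. Among pSEB with at most 5% mitochondrial UMIs this ratio was -0.043 (-0.35 to 0.26). PG basal keratinocytes stood at 167 CPM, above skin basal keratinocytes by 1.61 on the log2 scale (1.45 to 1.77), and the other PG classes with an Acbd6 UMI lay between 61.5 and 91.5 CPM. PG free RNA held 165 CPM.

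Differentiated pSEB were lower in Acbd6 than differentiated sSEB by 2.56 on the log2 scale (interval of the ratio -2.84 to -2.27), and the alternatives gave -2.73 to -2.17. Early stages did not differ detectably (0.19, -0.49 to 0.95), and intermediate pSEB were higher by 0.67 (0.04 to 1.39). Over all stages the log2 ratio was -1.08 (-1.28 to -0.87), but it depended on which skin cells were called sebocytes. A Leiden cluster of 147 skin cells with 7 of the 9 sebocyte markers held mostly cells classed as early by basal keratins and integrins. Most of its cells had not passed the sebocyte gate. It stood at 577 CPM of Acbd6 and 384 CPM of Dbi, and against it the log2 ratio of Acbd6 was -0.0070 (-0.21 to 0.20). In the PG 4 clusters were named sebocytes, with 20592 to 39698 CPM of Dbi and 262 to 722 CPM of Acbd6. The one with most Dbi had least Acbd6.

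Counts in single differentiated sebocytes showed the opposite balance of the 2 genes in the tissues. In the skin 24 of 38 sSEB held more UMIs of Acbd6 than of Dbi. These were 13 of the 16 differentiated, 6 of the 9 early and 5 of the 13 intermediate cells. In differentiated sSEB Acbd6 ranged up to 30 UMIs and Dbi up to 4. In the PG 4 of 785 pSEB held more Acbd6 than Dbi, and 0 of 96 differentiated cells did, which limits the share to 3.13%.

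**Figure D4:**
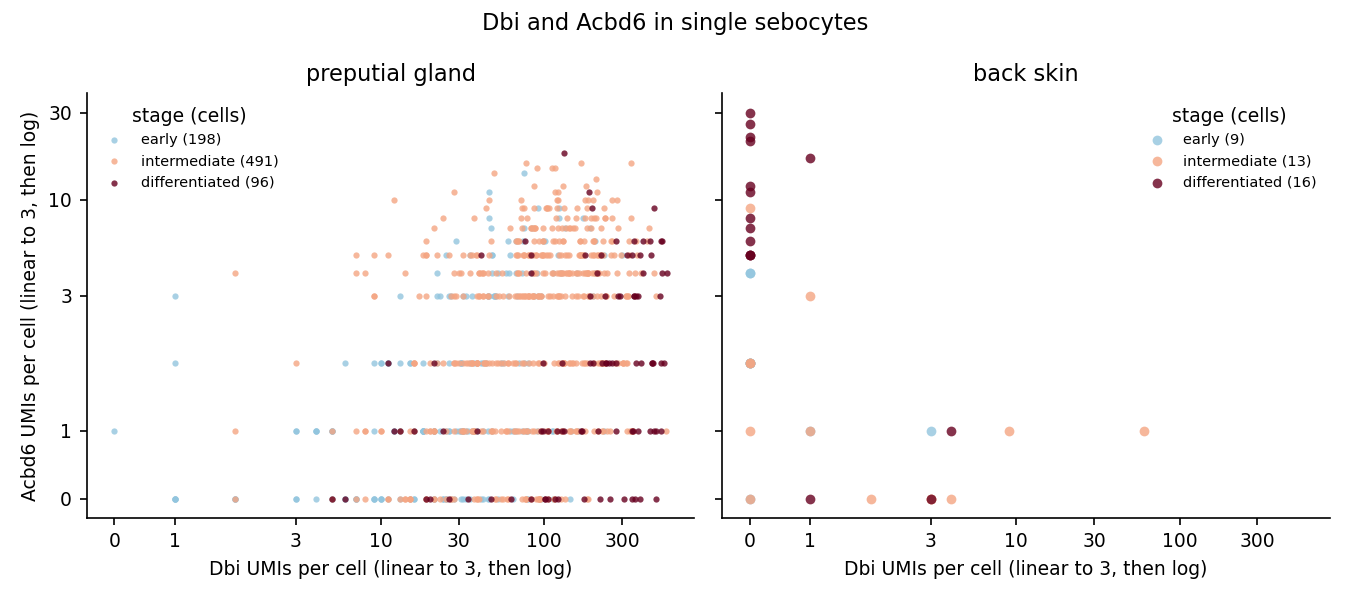
Dbi against Acbd6 UMIs in each sebocyte (axes linear to 3, then logarithmic), one point per cell, colored by stage, for the PG (left) and skin (right). Most PG cells lie far to the right (median 80 Dbi UMIs), whereas the differentiated sSEB lie along the left edge, with 12 of 16 at 0 Dbi UMIs.

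Acbd7 was seen mostly in pSEB. Of 435 UMIs in PG cells 355 lay in pSEB (83.1 CPM, 74.7 to 92.2), and 27.5% of pSEB held one. Basal keratinocytes stood at 5.59 CPM and PG free RNA at 37.7 CPM. The level was 33.6 CPM (22.5 to 48.3) in early, 98.0 CPM (86.6 to 110) in intermediate and 85.9 CPM (65.0 to 111) in differentiated pSEB. The intermediate and differentiated stages did not differ detectably (log2 ratio -0.19, -0.63 to 0.23), and both lay above the early stage, the differentiated one by 1.35 (0.68 to 2.05). In the skin 10 UMIs were counted in all 8899 cells and none in sSEB. The limit of 3 counts stood at 17.2 CPM there, and the Poisson upper bound at 21.1 CPM. Against the limit of 3 counts the pSEB level was 4.84-fold higher.

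Acbd5, the peroxisomal member, was highest in the differentiated stage among the stages of pSEB. It stood at 36.0 CPM (24.4 to 51.0) in early, 49.9 CPM (41.9 to 59.0) in intermediate and 91.9 CPM (70.3 to 118) in differentiated pSEB. The log2 difference between the last and the first was 1.35 (0.71 to 2.03), while the intervals of the early and intermediate stages overlapped. PG endothelial cells stood at 77.1 CPM on 6 UMIs and were not separated from differentiated pSEB by counting error. PG free RNA held 66.4 CPM. In sSEB 7 UMIs gave 40.0 CPM (16.1 to 82.5), and no difference from pSEB was detectable. Other skin classes with a UMI lay between 33.8 and 79.3 CPM. In suprabasal and follicle-list keratinocytes Acbd5 was lower in the PG than in the skin, with log2 ratios of -1.41 (-2.74 to -0.36) and -1.46 (-2.11 to -0.85), so Acbd5 did not share the direction of Dbi in these classes.

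Acbd4, the other peroxisomal tether, was low throughout. It reached 39.5 CPM in suprabasal keratinocytes of the skin, not separated from basal ones, and 48.6 CPM in those of the PG. Among skin epithelial cells it was lowest in the hair lineage, at 6.26 CPM (3.00 to 11.5) in the hair matrix and 10.1 CPM in the inner root sheath, against 35.9 CPM in basal keratinocytes. The hair matrix was lower by 2.52 on the log2 scale (interval of the ratio -3.59 to -1.62), which is the opposite of the direction of Dbi in the same cells. In this contrast Acbd4 was below 50 CPM in both classes and was not among the genes tested. Its 6 UMIs in differentiated pSEB (9.04 CPM) and 18 in early pSEB (20.9 CPM) gave an interval that included 0.

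Acbd3, the Golgi member, held to a narrow range. In classes of at least 30 cells it lay between 36.0 and 80.8 CPM in the PG, and in the skin it reached 82.3 CPM in suprabasal keratinocytes. In 23 melanocytes 14 UMIs gave 159 CPM (86.8 to 266). Skeletal muscle held none among 136763 UMIs, where the limit of 3 counts is 21.9 CPM. Neither the stages of pSEB (log2 ratio 0.12, -0.69 to 0.92) nor sebocytes of the 2 tissues (-0.27, -1.28 to 0.97) differed detectably.

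**Figure D5:**
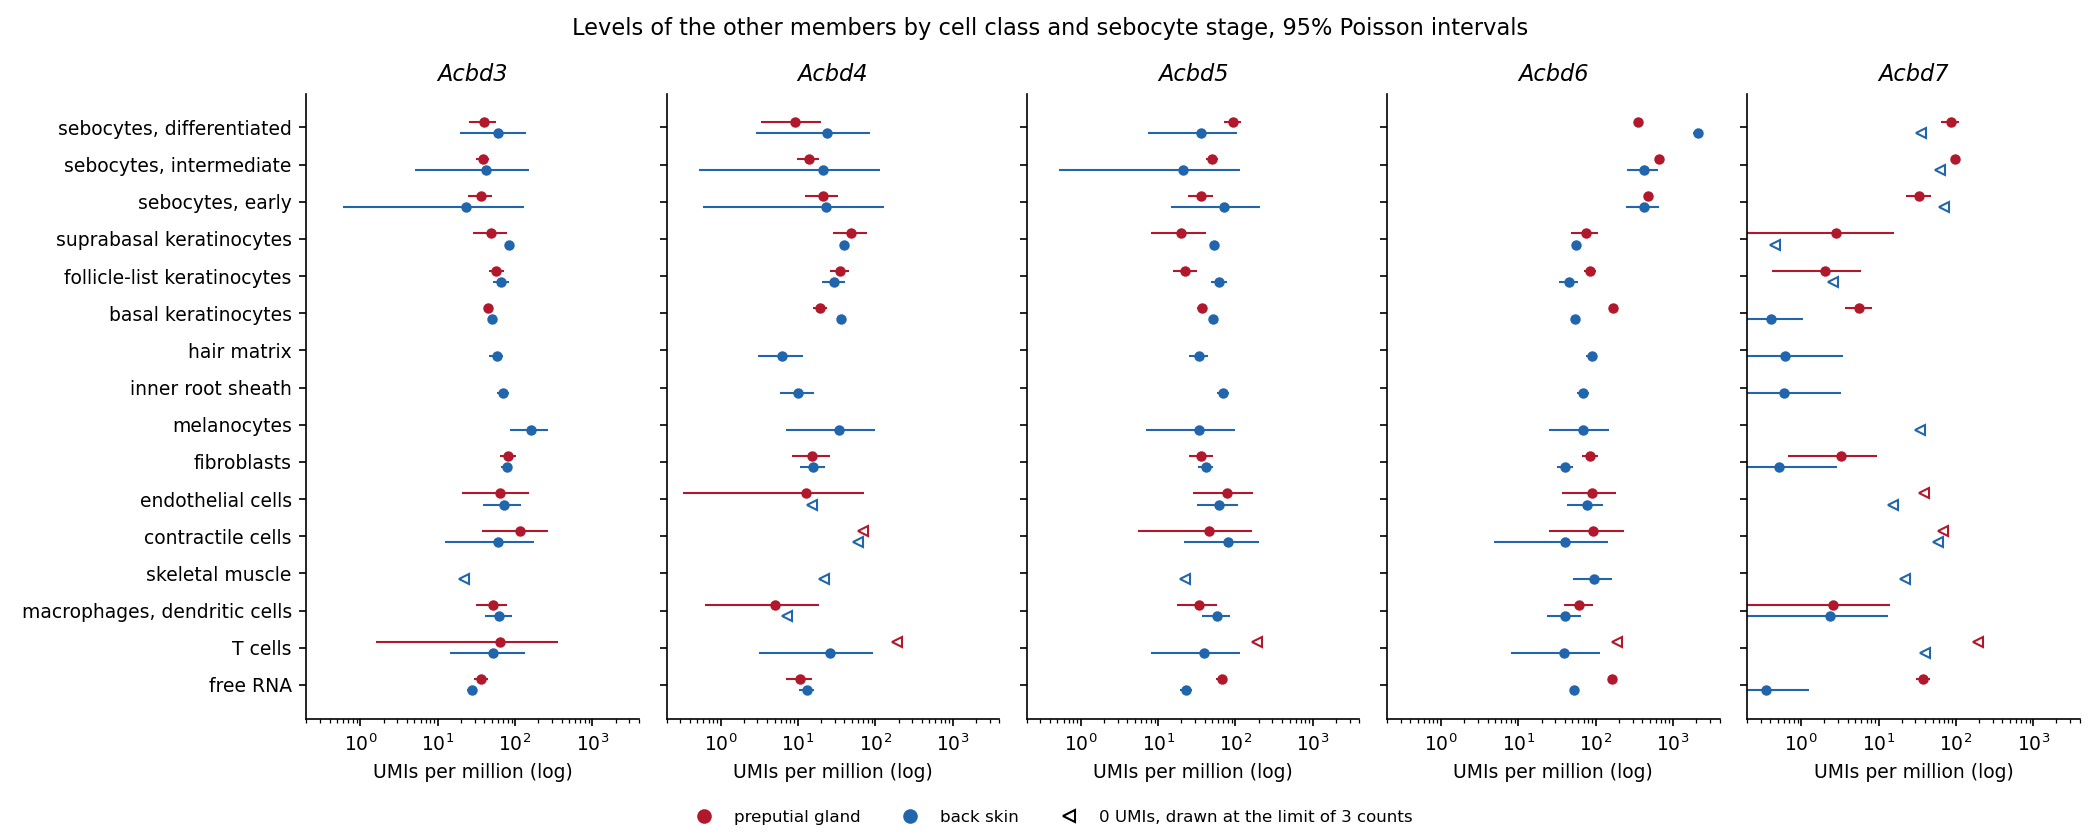
Acbd3, Acbd4, Acbd5, Acbd6 and Acbd7 in CPM (log axes) in each class and stage of the PG (red) and skin (blue), with 95% Poisson intervals and open triangles at the limit of 3 counts where no UMI was counted. Acbd6 and Acbd7 stand out in sebocytes, Acbd6 at 2092 CPM in differentiated sSEB, while Acbd3 stays near 36.0 to 80.8 CPM across the PG classes with at least 30 cells.

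Between early and differentiated pSEB 4 members could be tested. Dbi, Acbd5 and Acbd7 were at least 2-fold higher, beside 13.8% of 2916 genes, and none was at least 2-fold lower, beside 13.0%. Acbd5 and Acbd7 reached 50 CPM in differentiated pSEB only, so nothing is read from this count. Between pSEB and PG basal keratinocytes Dbi (2.69 on the log2 scale), Acbd6 (1.80) and Acbd7 (3.89) of 4 tested were at least 2-fold higher, beside 11.4% of all genes, and none at least 2-fold lower, beside 11.6%. Acbd7 reached 50 CPM in pSEB only, so nothing is read from its place in this count. Between pSEB and sSEB the 4 members tested included 2 at least 2-fold higher, beside 14.4% of all genes, and 1 at least 2-fold lower, beside 21.8%. That contrast chose the set, so nothing is read from this count.

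The enzymes that make, split and use acyl-CoA were counted between the PG stages, where 13.8% of all genes tested were at least 2-fold higher and 13.0% lower, and between the tissues, where the shares were 14.4% and 21.8%. A gene that reached 50 CPM only in the group where it was high had to differ, so the counts describe the lists and support nothing. Acyl-CoA synthetases activate fatty acids. Between early and differentiated pSEB 3 of 5 tested were at least 2-fold higher and 1 lower, with a list median of 1.24 on the log2 scale, beside -0.04 over all genes tested. Acsl1 stood at 661 CPM in differentiated and 114 CPM in early pSEB (2.54, 2.22 to 2.87), Slc27a4 was higher by 1.67, and Slc27a1 had a log2 ratio of -1.34. Between differentiated and early sSEB 4 of 5 tested were at least 2-fold higher, beside 19.8% of all genes, and none lower, beside 25.3%, but these 4 had only 0 to 4 UMIs each in early sSEB. Between the tissues 2 of 7 tested were at least 2-fold higher in pSEB and 3 lower. Acsl1 was higher in pSEB by 4.42 on the log2 scale and rested on 2 UMIs in sSEB, whereas Acsbg1 stood at 515 CPM in sSEB and 15.0 CPM in pSEB (-5.10, -5.59 to -4.62).

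Thioesterases release the fatty acid again. Of 5 tested between the PG stages 3 were at least 2-fold higher and 1 lower, with a median of 1.40. Olah, which ends fatty acid synthesis early and so yields shorter chains, stood at 1166 CPM in differentiated pSEB and 244 CPM in early pSEB. It had 0 UMIs in sSEB, and against the limit of 3 counts there pSEB were 35.8-fold higher over all stages. Acot1 was higher in differentiated than in early pSEB by 1.67. Between the tissues 3 of 5 tested were at least 2-fold higher in pSEB and none lower.

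Carriers bind free fatty acids and sterols as Dbi binds acyl-CoA. Fabp5, an epidermal fatty acid binding protein, stood at 15402 CPM in sSEB and 2613 CPM in pSEB, a log2 ratio of -2.56 (-2.62 to -2.50), against the direction of Dbi. It was higher in differentiated than in early cells of both tissues, by 2.84 in the PG and 6.40 in the skin. Scp2, a peroxisomal sterol carrier, was higher by 1.21 in the PG and 2.29 in the skin. Fabp4 had log2 ratios of -4.73 between pSEB and sSEB and -3.10 between differentiated and early pSEB.

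Among 9 tested enzymes that consume acyl-CoA 5 were at least 2-fold higher in differentiated than in early pSEB and none at least 2-fold lower, with a median of 1.29. Far1, which reduces acyl-CoA to fatty alcohol, stood at 1651 CPM against 19.7 CPM (6.39, 5.70 to 7.17), below 50 CPM in early pSEB as were Gpat4, Dgat1 and Gnpat. Agpat3 was higher by 3.58, Gpat4 by 2.62, Dgat1 by 1.73 and Gnpat by 1.29. Between the tissues 3 of 7 tested were at least 2-fold higher in pSEB, which were Far1 (274 against 17.2 CPM), Gpat4 (77.7 against 5.72 CPM) and Agpat3 (317 against 28.6 CPM), each resting on 1 to 5 UMIs in sSEB, and none was at least 2-fold lower.

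Of 5 partners of the members tested between the PG stages, beside the same shares of all genes, Pex19, the chaperone that inserts peroxisomal tail anchors, was at least 2-fold higher (1.51, 1.02 to 2.01) and none at least 2-fold lower, while Vapa (0.30) and Vapb (0.26) had intervals that included 0. Tspo, the mitochondrial protein first known as a receptor for Dbi peptides, had a log2 ratio of -0.45 (-0.73 to -0.18). Between the tissues none of 6 partners tested was at least 2-fold higher in pSEB, beside 14.4% of all genes. Nmt1, a partner of Acbd6, alone was at least 2-fold lower, beside 21.8%. It stood at 183 CPM in sSEB and 25.8 CPM in pSEB (-2.83, -3.41 to -2.21). Nmt1 reached 50 CPM in sSEB only, so nothing is read from this count. None of the 3 lipid regulators tested was 2-fold apart between the PG stages, and Srebf1 had a log2 ratio of -0.84 (-1.14 to -0.54). Of the other genes with an acyl-CoA binding domain, Eci2 stood at 212 CPM in sSEB and 31.8 CPM in pSEB, and Eci3 and Dbil5 had 0 UMIs in both.

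Genes with a pattern like that of Dbi were ranked by Pearson's r of log2(CPM + 10) over 19 classes of at least 30 cells in both tissues, among 7578 genes. Genes entered with at least 50 CPM in any of these classes. Mitochondrial genes, ribosomal protein genes and gating markers were left out, so sebocyte markers such as Scd1 could not appear. The classes of a tissue share a library and its free RNA, so r is a description. The leading genes were Pex11a (0.961), which divides peroxisomes, Sdr42e1 (0.954), Sort1 (0.943), Lratd1 (0.940), Tecr (0.936), the reductase of fatty acid elongation, Ap1m2, Adig and Psma6. Over the 9 PG classes alone Lap3 (0.990) and the respiratory chain genes Ndufa7 (0.987), Ndufb8 (0.985) and Uqcr10 (0.983) stood among the first 8. The others were the ATP synthase gene Atp5g1 (0.984), Sdr42e1, Ube2a and Uchl3. No stage of sSEB reached 30 cells, so sSEB, where Acbd6 was highest, did not enter this ranking. Among the members r with Dbi over 19 classes was 0.778 for Acbd7 and 0.771 for Acbd6, and below 0.3 for the other 3. Acbd6 and Acbd7 had an r of 0.906 with each other.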

How the data were processed

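Single-cell libraries of back skin and PG, each pooled from 3 mice, were analysed. The authors deposited raw UMI counts per gene and barcode, made with Cell Ranger 4 on mm10 per the submitters' processing notes, and no column of another sample was present (0). Background barcodes were kept in the files, which allowed free RNA to be measured. Cells were gated on fixed marker lists that hold no member, and UMIs were summed per class. Incompatible gates were taken as mixed droplets and set aside, and doublets were also scored in an alternative. With 1 library per tissue no test was run. A gene counted as higher or lower at 2-fold, without replicate error. The members and lists were chosen with earlier results of these data known. Named genes were the members, some genes of the pathway lists, and genes among the 8 most like a member by r. The pathway lists were counted in full, but most of their genes are not named, so the named ones are examples. The calculation of ratios and intervals was checked on simulated counts that held counting error only. That check says nothing about spread between cells or mice. Computation used Python 3.11.15, numpy 2.4.6, scipy 1.17.1, pandas 2.3.3, scikit-learn 1.9.0, igraph 0.11.9 with leidenalg 0.10.2, and matplotlib 3.10.9. Alternatives varied the cell filters, doublets, gate, clustering, scaling and free RNA. Protein sequences and the promoter of Dbi are not reported here.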

Additional observations from a re-analysis of the deposited data

Results flagged for a closer look

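The ratio of Acbd6 over the sebocyte stages had opposite signs in the tissues. Differentiated over early cells, the log2 ratio was -0.43 in pSEB and 2.31 in sSEB. In pSEB the level was highest in the intermediate stage, and with at most 5% mitochondrial UMIs the PG ratio was -0.043 (-0.35 to 0.26). With 1 library per tissue the difference between these ratios was not tested.

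Barcodes above the mitochondrial limit, which the comparisons leave out, carried the same transcripts. The 170 PG barcodes of this kind that met the sebocyte gate held 16437 CPM of Dbi (16104 to 16775) and 358 CPM of Acbd6 (311 to 411). The 8 skin barcodes held 1420.1 CPM of Acbd6 (919 to 2096) and 2 UMIs of Dbi. The 3 levels given in CPM lay above the limit that a count of 0 allows.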

How the results depend on the processing

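No paired analysis was possible because each tissue was a single pooled library. No ratio of the Dbi and Acbd6 comparisons that was separated from 0 changed its sign under an alternative. Levels of the other 5 members in sebocytes were recomputed with the depth filter and without likely doublets, and the free RNA bounds with barcodes of 1 to 50 UMIs. These values stayed within counting error but had little room to move. Doublet removal left all 38 sSEB, so the skin levels under it were the main ones. The depth filter kept 712 of 785 pSEB and 35 of 38 sSEB. Barcodes of 1 to 50 UMIs are part of the free RNA used before. Little is therefore read from these checks. In the Leiden cluster of skin sebocytes Acbd6 stood at 577 CPM, against 1224 CPM in the gate. The cause of a moved value was not tested.

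The log2 ratio of Dbi between pSEB and sSEB (5.25) was 6.42 with at most 5% mitochondrial UMIs, 4.95 with the gate at 2 times the share, 6.20 with Leiden clusters and 4.01 when divided by the fibroblast ratio. Between differentiated and early pSEB (1.68) it was 1.54 with at most 5% mitochondrial UMIs, 1.82 without likely doublets, 1.34 with the stricter gate, 0.82 with Leiden clusters, 1.77 as a mean over cells and 1.47 without mitochondrial and ribosomal protein genes. Between these stages of sSEB (0.19) it was -5.19 with Leiden clusters, on 1 UMI and with most cells of the cluster outside the sebocyte gate. Between pSEB and PG fibroblasts (4.23) it was 3.12 with at least 1000 genes and 2000 UMIs, 4.09 with at most 5% mitochondrial UMIs and 4.40 without likely doublets. It was 3.83 with Leiden clusters, 4.36 as a mean over cells and 4.43 without mitochondrial and ribosomal protein genes. With free RNA subtracted from fibroblasts only it was 4.75.

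Further alternatives were chosen after seeing the data. Between PG and skin fibroblasts the ratio of Dbi (1.24) was 0.79 with free RNA subtracted. Without the skin cell with most Dbi the ratio between pSEB and sSEB was 6.63. Between differentiated and early pSEB it was 1.48 with barcodes above the mitochondrial limit and 1.21 for cells with 3 or more late markers against 0. Between differentiated cells of the tissues (8.38) it was 9.65 with at most 5% mitochondrial UMIs, 11.36 with Leiden clusters and 11.17 by late markers. For Acbd6 the ratio between pSEB and sSEB (-1.08) was -0.81 with at most 5% mitochondrial UMIs, -1.68 with the stricter gate, -0.0070 with Leiden clusters and -2.16 when divided by the fibroblast ratio. Between differentiated and early pSEB (-0.43) it was -0.043 with at most 5% mitochondrial UMIs, -0.68 with the stricter gate and -0.78 by late markers. Between these stages of sSEB (2.31) it was 4.004 with Leiden clusters, where most skin cells lay outside the sebocyte gate. Between differentiated cells of the tissues (-2.56) it was -2.17 with at most 5% mitochondrial UMIs. The stricter gate left 1 early sSEB, so the stage ratios of the skin were not run under it.

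The 38 sSEB hold 174851 UMIs, which limits every skin sebocyte value. For a gene without a UMI there the limit of 3 counts is 17.2 CPM. In the PG many cells lie near the gate. The intervals leave out variation between mice, which the pooling removed.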

Other observations

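Acbd6 and Acbd7 had other neighbours than Dbi when genes were ranked by r over the 19 classes. No sSEB were among these classes, so the skin cells in which Acbd6 was highest did not enter the ranking. The genes most like Acbd6 were Gstz1 (0.951), an enzyme of tyrosine breakdown, Camp (0.936), the precursor of the cathelicidin peptide, Scgb1c1, Kcnk1, Trap1, Pecr, Lhpp and Reep6. Those most like Acbd7 were Tmem56 (0.968), Gm10790 (0.967), Pecr (0.966), a peroxisomal trans-enoyl-CoA reductase, Fa2h (0.959), the fatty acid 2-hydroxylase, Lhpp, Spink8, Pdss2 and Hacd2, a dehydratase of fatty acid elongation. Pecr and Lhpp stood in both lists. Over the 9 PG classes alone Scp2 (0.986), Hacd2 and Acsl5 were among the first 8 for Acbd7, and Amacr, a peroxisomal racemase, among those for Acbd6. These classes share libraries and free RNA, and r is a description.

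Cells without a class also carried Dbi, at 1809 CPM in 894 skin cells and 5621 CPM in 810 PG cells. In the 293 and 165 cells that met incompatible gates it stood at 948 and 6851 CPM.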
